A study of Mus musculus with 12 samples.

Results

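Expression of the G1 cyclins, their kinases and the pocket proteins was followed in mouse cardiac fibroblasts after *Sox17*-*Erg* reprogramming. The members were the 10 rows of the deposited count table whose Ensembl identifiers map to *Ccnd1*, *Ccnd2*, *Ccnd3*, *Ccne1*, *Ccne2*, *Cdk4*, *Cdk6*, *Cdk2*, *Rb1* and *Rbl1*, of 35727 genes in the table, and all 10 were among the 15506 genes with enough counts to test. Bulk mRNA sequencing was carried out on 12 libraries, 2 in each of 6 groups. Cells came from pooled hearts of neonatal mice, were depleted of PECAM1-positive cells and selected for THY1, and were infected with retrovirus on the next day. The mice were C57BL/6J or carried *Tcf21*-CreERT2 with a *Rosa26*-tdTomato reporter, and the sources used here do not give which strain went into these libraries. *Sox17*-*Erg* cells received retroviruses for both transcription factors. Control columns carry the name PMX, the retroviral backbone, and whether an insert was present was not given in the sources used here. Both groups were grown in EGM2, an endothelial growth medium, and RNA was taken at Day 3, Day 7 and 4 weeks. Each library is a whole culture, so fewer cells of a type and less RNA per cell cannot be told apart in any value given here. Nothing in the labels says that the 2 libraries of a group came from separate isolations, and p-values measure the spread between these libraries only.

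Cells commit to division in G1. D-type cyclins are made in response to mitogens and activate CDK4 and CDK6, which phosphorylate the retinoblastoma protein and its relative p107 (*Rbl1*). Phosphorylation releases E2F factors, which switch on the E-type cyclins and the replication genes, and cyclin E with CDK2 completes the inactivation of the pocket proteins and starts DNA synthesis. Cell types differ in which of the D-type cyclins they use.

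Promoter sequences are shown because E2F, the factor that the pocket proteins restrain, acts at promoters: both entries with a match are printed, and that of an E-type cyclin without one. Of the 10 members 6 had promoter entries in RefSeq on GRCm38.p6, with 7 entries in all (*Ccnd3* with 2, *Ccne1*, *Cdk4*, *Cdk6*, *Cdk2* and *Rbl1*). Each entry runs from 250 bases before the start to 50 bases after it. E2F sites were searched on both strands as TTTCCCGC, TTTGGCGC, TTTCGCGC or TTTGCCGC and a match on 1 strand can overlap a match on the other. At least 1 of them was in 744 of 32851 promoters of all genes, or 2.26%. Among the 7 entries, *Cdk2* held 1 at position -140 on the reverse strand, *Rbl1* held 1 at position -18 on the forward strand, and the other 5 held none of these letters. Positions are counted in bases from the start, and are those of the first base of the match as printed. The lines below give the promoters of *Rbl1* at chr2:157204485-157204784, of *Cdk2* at chr10:128705002-128705301 and of *Ccne1* at chr7:38107441-38107740, all on the minus strand and written 5′ to 3′ along the gene. Capitals mark the E2F match.
Rbl1: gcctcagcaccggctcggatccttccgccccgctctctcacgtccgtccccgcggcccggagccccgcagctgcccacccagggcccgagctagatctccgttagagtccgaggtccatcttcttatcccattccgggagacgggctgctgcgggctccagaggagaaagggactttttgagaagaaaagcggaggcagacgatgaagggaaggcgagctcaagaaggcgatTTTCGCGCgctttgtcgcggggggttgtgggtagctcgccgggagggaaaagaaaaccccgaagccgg
Cdk2: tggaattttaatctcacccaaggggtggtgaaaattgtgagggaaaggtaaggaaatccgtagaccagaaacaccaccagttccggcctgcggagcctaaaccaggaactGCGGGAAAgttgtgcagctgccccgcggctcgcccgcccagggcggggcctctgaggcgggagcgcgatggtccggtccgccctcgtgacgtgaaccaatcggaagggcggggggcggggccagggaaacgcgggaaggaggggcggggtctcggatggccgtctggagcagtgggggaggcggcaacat
Ccne1: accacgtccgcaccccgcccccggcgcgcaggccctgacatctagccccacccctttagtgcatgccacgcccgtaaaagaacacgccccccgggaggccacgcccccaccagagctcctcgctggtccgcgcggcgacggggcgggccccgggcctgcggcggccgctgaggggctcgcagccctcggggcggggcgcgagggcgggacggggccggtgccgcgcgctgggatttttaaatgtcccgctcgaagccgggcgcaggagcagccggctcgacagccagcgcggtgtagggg

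Each library had between 19011635 and 41240449 counts, and the least counted member, *Ccne2*, had between 28 and 400 counts per library. Levels are given as TMM-normalized CPM, which are counts scaled for library size. *Sox17* lay at or below 0.416 CPM in the 6 control libraries and between 432 and 1036 CPM in the 6 *Sox17*-*Erg* libraries. *Erg* lay at or below 2.27 CPM in the controls and between 17.1 and 65.2 CPM in the *Sox17*-*Erg* libraries. The labelled fibroblast identity was met by all 10 fibroblast markers in each group, with summed levels between 12824 and 42007 CPM. No library went against its label.

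*Sox17*-*Erg* cells had more *Rb1* at each time point, more *Ccnd2* and less *Ccnd3*, and at Day 3 more *Cdk4*. The other members, *Ccnd1*, *Ccne1*, *Ccne2*, *Cdk6*, *Cdk2* and *Rbl1*, did not pass edgeR's test against control at any time point. Of these, *Ccne2*, *Cdk2* and *Rbl1* passed only in other fits. At Day 3, 2 of the 10 members were called higher (*Cdk4* and *Rb1*) against 7.19% of all genes tested, and 0 were called lower against 5.13%. One member was lower at an unadjusted p under 0.05 and 1 with DESeq2's Wald test. At Day 7, 1 was called higher (*Rb1*) against 9.48% of all genes and 1 lower (*Ccnd3*) against 7.93%. At 4 weeks, 2 were called higher (*Ccnd2* and *Rb1*) against 11.9% and 1 lower (*Ccnd3*) against 11.0%. A call is a Benjamini-Hochberg adjusted p under 0.05 in edgeR's quasi-likelihood test over all genes. The members had median log2 fold changes of 0.70, 0.44 and 0.19 at the 3 time points, beside 0.010, 0.0058 and -0.014 for all genes tested. Same-numbered *Sox17*-*Erg* and control libraries deviated weakly together at each time point (correlations across genes of 0.19, 0.30 and 0.17). No label says that they are pairs, so the replicate block used next rests on an assumption. With the replicate number as a block within each time point, 6, 4 and 3 members were called higher at Day 3, Day 7 and 4 weeks, beside 12.7%, 13.8% and 15.5% of all genes, and 1 was called lower at each, beside 10.4%, 13.3% and 15.5%.

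**Figure D1:**
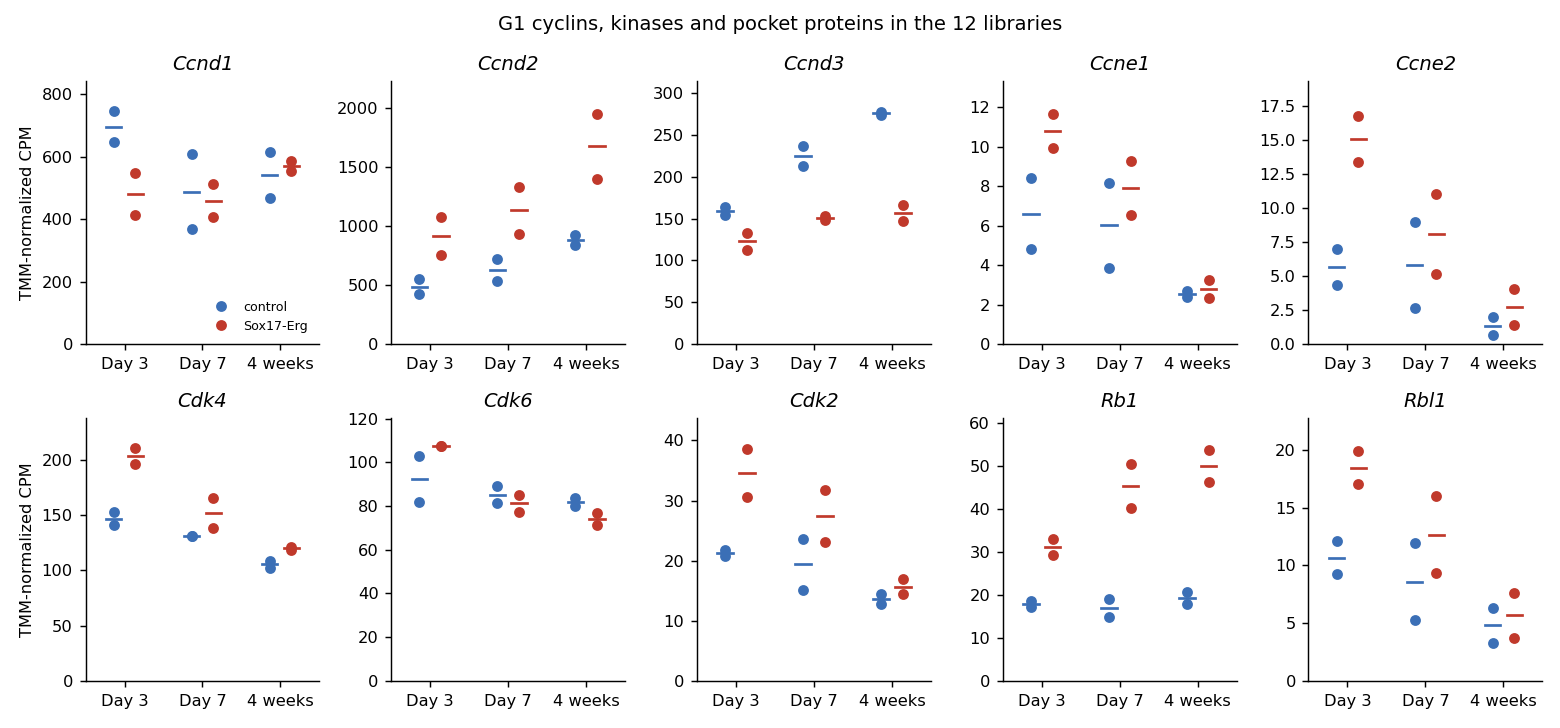
Level of each member in TMM-normalized CPM (y axis, from 0, with its own scale in each panel) at Day 3, Day 7 and 4 weeks (x axis). Points are single libraries, 2 in each group, and short lines are means, with control in blue and *Sox17*-*Erg* in red. *Rb1* and *Ccnd2* lie above control and *Ccnd3* below it at every time point, and *Ccne1*, *Ccne2*, *Cdk4*, *Cdk6*, *Cdk2* and *Rbl1* have their lowest means at 4 weeks in both groups.

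D-type cyclins bind CDK4 and CDK6 and set their activity. *Ccnd2* (cyclin D2; ENSMUSG00000000184, chr6:127125162-127152193, minus strand of GRCm38) was measured at 551 and 424 CPM in control and at 1074 and 752 CPM in *Sox17*-*Erg* libraries at Day 3. At Day 7 its levels were 722 and 530 CPM in control and 1328 and 935 CPM in *Sox17*-*Erg*. At 4 weeks they were 924 and 839 CPM in control and 1946 and 1396 CPM in *Sox17*-*Erg*. The groups did not overlap at any time point, and the first *Sox17*-*Erg* library was the higher one each time. Levels were 1.87-fold higher at Day 3 (log2 fold change 0.91, SE 0.27, edgeR adjusted p = 0.0612), 1.81-fold at Day 7 (0.85, SE 0.27, adjusted p = 0.0613) and 1.90-fold at 4 weeks (0.92, SE 0.27, adjusted p = 0.0396). With the replicate block within time points the Day 3 and Day 7 differences were called as well (adjusted p = 0.00570 and 0.00467), as they were by DESeq2's Wald test (0.00971 and 0.0125) and with no filter on low counts (0.00338 and 0.00434). The 4-week call was lost without the first *Sox17*-*Erg* library of 4 weeks (log2 fold change 0.66, adjusted p = 0.232), either control library of that time (adjusted p = 0.123 and 0.153) or the first control library of Day 3 (adjusted p = 0.0528). The difference stayed positive in these fits. The Day 3 value was 0.59 without the first *Sox17*-*Erg* library of that day.

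*Ccnd3* (cyclin D3; ENSMUSG00000034165, chr17:47505051-47599691, plus strand) went the opposite way. At Day 3 it was measured at 155 and 164 CPM in control and at 113 and 133 CPM in *Sox17*-*Erg*. At Day 7 the levels were 237 and 212 CPM against 148 and 153 CPM. At 4 weeks they were 277 and 274 CPM against 166 and 148 CPM. Every *Sox17*-*Erg* library was below both control libraries of its time point. Its log2 fold change at Day 3 was -0.38 (SE 0.12, edgeR adjusted p = 0.0679), -0.58 at Day 7 (SE 0.12, adjusted p = 0.0112) and -0.81 at 4 weeks (SE 0.12, adjusted p = 0.00154), the last a 1.76-fold lower level. The Day 3 difference was called with the replicate block within time points (adjusted p = 0.0394), by DESeq2's Wald test (0.0161) and with a stricter filter on low counts (0.0439). The Day 7 call was lost without the first *Sox17*-*Erg* library (adjusted p = 0.0907) or the first control library of that day (adjusted p = 0.0510), and when Day 7 was fitted alone (adjusted p = 0.0813). Of its 31-base transcript words, 4.32% also occur on the same strand in other genes, pseudogenes among them, so part of its count is uncertain.

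*Ccnd1* (cyclin D1; ENSMUSG00000070348, chr7:144929931-144939925, minus strand) is the D-type cyclin most closely tied to growth factor signalling. Day 3 libraries held 646 and 747 CPM in control and 413 and 549 CPM in *Sox17*-*Erg*. Day 7 libraries held 607 and 369 CPM against 512 and 407 CPM. At 4 weeks there were 468 and 614 CPM against 587 and 553 CPM. Only at Day 3 did the groups not overlap, with *Sox17*-*Erg* lower, and the 2 controls of Day 7 lay further apart than the group means at any time point. The log2 fold changes of -0.53 (SE 0.26), -0.09 (SE 0.26) and 0.07 (SE 0.26) gave edgeR adjusted p-values of 0.198, 0.847 and 0.871. Exons of *LTO1* on the opposite strand cover 22.3% of its transcript words, and strand use in the counting was not given in the sources used here.

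The 3 D-type cyclins were also set beside each other per kilobase of exon, with the exons of all annotated isoforms of a gene merged. Which isoforms these cells made was not measured, so shares and orders between genes depend on the annotation and are approximate. In control libraries at Day 3, *Ccnd1* supplied 64.3% and 71.3% of the summed D-type cyclin CPM per kilobase, *Ccnd2* 27.4% and 20.3%, and *Ccnd3* 8.27% and 8.42%. In *Sox17*-*Erg* libraries at that time *Ccnd1* supplied 40.8% and 55.1% and *Ccnd2* 53.2% and 37.8%. At 4 weeks *Ccnd2* supplied 42.9% and 35.5% in control and 59.0% and 52.5% in *Sox17*-*Erg*, while *Ccnd3* supplied 13.8% and 12.5% in control and 5.41% and 5.96% in *Sox17*-*Erg*. Thus *Ccnd1* had the largest mean share in control cells at all 3 time points, and *Ccnd2* had it in *Sox17*-*Erg* cells at Day 7 and 4 weeks. These shares are a description and were not tested. Within libraries, the log2 ratio of *Ccnd2* to *Ccnd3* CPM ranged from 1.32 to 1.83 in the 6 control libraries and from 2.5 to 3.55 in the 6 *Sox17*-*Erg* libraries, with no overlap.

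E-type cyclins activate CDK2 at the G1/S transition and are themselves E2F target genes. *Ccne2* (cyclin E2; ENSMUSG00000028212, chr4:11191351-11204779, plus strand) was measured at 6.99 and 4.39 CPM in control and at 16.8 and 13.4 CPM in *Sox17*-*Erg* at Day 3. At Day 7 the levels were 9.02 and 2.65 CPM against 11.03 and 5.14 CPM. At 4 weeks they were 0.702 and 2.03 CPM against 1.42 and 4.04 CPM. The groups were apart at Day 3 and overlapped later, when the libraries of at least 1 group differed from each other more than the group means did. Log2 fold changes were 1.40 (SE 0.69), 0.48 (SE 0.69) and 1.04 (SE 0.75), with edgeR adjusted p-values of 0.209, 0.673 and 0.367. With the replicate block within time points *Ccne2* was called higher at Day 3 (1.43, adjusted p = 0.00560) and at 4 weeks (0.997, adjusted p = 0.0211), and at Day 3 also with no filter on low counts (adjusted p = 0.0119) and with Day 3 fitted alone (adjusted p = 0.0367). In edgeR's fit its 4-week value rested on single libraries: it was 0.075 and 1.60 without the second and the first *Sox17*-*Erg* library of 4 weeks, and 0.42 and 1.95 without the first and the second control library. *Ints8* on the opposite strand covers 15.6% of its transcript words.

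*Ccne1* (cyclin E1; ENSMUSG00000002068, chr7:38097984-38107534, minus strand) held 8.40 and 4.81 CPM in control and 11.6 and 9.91 CPM in *Sox17*-*Erg* at Day 3. It held 8.18 and 3.86 CPM against 9.29 and 6.55 CPM at Day 7. At 4 weeks the levels were 2.38 and 2.68 CPM against 2.34 and 3.26 CPM. Again the groups were apart at Day 3 and overlapped at the later time points. The log2 fold changes of 0.70 (SE 0.38), 0.40 (SE 0.38) and 0.15 (SE 0.40) gave adjusted p-values of 0.253, 0.512 and 0.836. The Day 3 value was 1.16 and 0.32 without the first and the second control library of that day.

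*Cdk4* and *Cdk6* are the partners of the D-type cyclins. *Cdk4* (ENSMUSG00000006728, chr10:127063534-127067920, plus strand) was measured at 141 and 152 CPM in control and at 211 and 196 CPM in *Sox17*-*Erg* at Day 3. At Day 7 the levels were 131 and 130.7 CPM against 166 and 138 CPM, and at 4 weeks 109 and 102 CPM against 121 and 118 CPM. All *Sox17*-*Erg* libraries were above both controls of their time point. The log2 fold change was 0.47 at Day 3 (SE 0.11, 1.39-fold, edgeR adjusted p = 0.0299), 0.21 at Day 7 (SE 0.11, adjusted p = 0.229) and 0.19 at 4 weeks (SE 0.11, adjusted p = 0.272). The Day 7 value was 0.077 without the first *Sox17*-*Erg* library of that day. The Day 3 call lay close to the threshold: it was lost without filtering low counts (adjusted p = 0.0503) and without any 1 of the 4 Day 3 libraries (adjusted p between 0.0590 and 0.247), either *Sox17*-*Erg* library of 4 weeks (0.0588 and 0.0528), the second control library of 4 weeks (0.0601) or the first control library of Day 7 (0.0532). *Tspan31*, on the opposite strand, covers 18.1% of the transcript words of *Cdk4* and had lower *Sox17*-*Erg* than control values at Day 3 (log2 fold change -0.15, SE 0.11, adjusted p = 0.382).

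*Cdk6* (ENSMUSG00000040274, chr5:3341485-3531008, plus strand) ranged only from 71.2 to 108 CPM over the 12 libraries. Day 3 levels were 103 and 81.7 CPM in control and 107 and 108 CPM in *Sox17*-*Erg*. Those of Day 7 were 88.9 and 81.1 CPM against 85.2 and 77.3 CPM, and those of 4 weeks 80.1 and 83.7 CPM against 76.8 and 71.2 CPM. *Sox17*-*Erg* libraries were above control at Day 3, overlapped it at Day 7 and were below it at 4 weeks, by small margins. The log2 fold changes of 0.22, -0.07 and -0.15 (SE 0.12 each) gave edgeR adjusted p-values of 0.269, 0.754 and 0.441. The Day 3 value was 0.40 and 0.026 without the first and the second control library of that day, and the Day 7 value lay between -0.14 and -0.023 without single libraries. The log2 ratio of *Cdk6* to *Cdk4* CPM lay between -0.90 and -0.28 in control and between -0.97 and -0.66 in *Sox17*-*Erg* libraries, which overlapped.

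*Cdk2* (ENSMUSG00000025358, chr10:128697939-128705031, minus strand), the kinase partner of the E-type cyclins, was measured at 21.8 and 20.8 CPM in control and at 38.5 and 30.6 CPM in *Sox17*-*Erg* at Day 3. Levels of 23.7 and 15.2 CPM against 31.8 and 23.1 CPM followed at Day 7, and of 12.8 and 14.4 CPM against 14.4 and 16.9 CPM at 4 weeks. The groups did not overlap at Day 3 and overlapped later, at 4 weeks by a narrow margin. Log2 fold changes were 0.70 (SE 0.23, edgeR adjusted p = 0.0779), 0.50 (SE 0.23, adjusted p = 0.170) and 0.20 (SE 0.23, adjusted p = 0.579). With the replicate block within time points *Cdk2* was called higher at Day 3 (adjusted p = 0.00713) and Day 7 (adjusted p = 0.0156). It was also called at Day 3 with no filter on low counts (adjusted p = 0.0122), with Day 3 fitted alone (adjusted p = 0.0449) and without the second control library of Day 7 (adjusted p = 0.0466). Its Day 7 value was 0.25 without the first *Sox17*-*Erg* library of Day 7, and 0.83 and 0.22 without the first and the second control library. Its 4-week value was 0.31 and 0.055 without the first and the second *Sox17*-*Erg* library of 4 weeks, and 0.12 without the first control library.

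Pocket proteins bind E2F and hold its target genes silent. *Rb1* (the retinoblastoma gene; ENSMUSG00000022105, chr14:73183673-73325822, minus strand) was the member with the largest change against control that passed the test. Control libraries held 17.2 and 18.6 CPM at Day 3, 18.97 and 14.8 CPM at Day 7, and 20.6 and 17.8 CPM at 4 weeks. *Sox17*-*Erg* libraries held 32.9 and 29.2 CPM at Day 3, 50.5 and 40.2 CPM at Day 7, and 53.7 and 46.3 CPM at 4 weeks. Control levels stayed within a narrow range over time, and each *Sox17*-*Erg* library lay above all 6 controls. *Rb1* was 1.73-fold higher at Day 3 (log2 fold change 0.79, SE 0.17, edgeR adjusted p = 0.0193), 2.69-fold at Day 7 (1.43, SE 0.17, adjusted p = 0.000827) and 2.60-fold at 4 weeks (1.38, SE 0.17, adjusted p = 0.000566). The later calls held without any 1 library. At Day 3 the call was lost without the first *Sox17*-*Erg* library (adjusted p = 0.180) or either control library (adjusted p = 0.119 and 0.105).

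A gene on the opposite strand moved with *Rb1*. *Lpar6*, a lysophosphatidic acid receptor gene that lies within *Rb1*, held 6.48 and 6.29 CPM in control and 23.0 and 17.5 CPM in *Sox17*-*Erg* at Day 3, and its log2 fold changes were 1.66 (SE 0.15), 2.17 (SE 0.15) and 2.18 (SE 0.15) at the 3 time points (edgeR adjusted p = 0.000618, 9.59e-05 and 2.93e-05). Its transcripts share 5.93% of the 31-base words of *Rb1*, and *Rcbtb2* at the other end shares 7.23%. *Rcbtb2* did not pass the test, with log2 fold changes of 0.06, -0.13 and 0.22. The libraries were made with a stranded kit, but strand use in the counting was not given in the sources used here, and the part of *Lpar6* in the *Rb1* values was not tested.

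*Rbl1* (p107; ENSMUSG00000027641, chr2:157145893-157204534, minus strand), the pocket protein that is made mainly in dividing cells, held 12.1 and 9.25 CPM in control and 19.9 and 17.0 CPM in *Sox17*-*Erg* at Day 3. It held 11.9 and 5.27 CPM against 16.0 and 9.36 CPM at Day 7 and 3.26 and 6.34 CPM against 3.75 and 7.59 CPM at 4 weeks. Groups were apart at Day 3 and overlapped afterwards. The log2 fold changes of 0.79 (SE 0.48), 0.57 (SE 0.48) and 0.25 (SE 0.49) gave edgeR adjusted p-values of 0.302, 0.452 and 0.760. With the replicate block within time points *Rbl1* was called higher at Day 3 (adjusted p = 0.0126) and Day 7 (adjusted p = 0.0265). In edgeR's fit its Day 7 value was 0.12 and 0.85 without the first and the second *Sox17*-*Erg* library of Day 7, and 1.25 and 0.095 without the first and the second control library. Within libraries the log2 ratio of *Rbl1* to *Rb1* CPM moved from -0.51 and -1.01 (Day 3) to -2.66 and -1.49 (4 weeks) in control libraries, and from -0.73 and -0.78 to -3.84 and -2.61 in *Sox17*-*Erg* libraries.

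**Figure D2:**
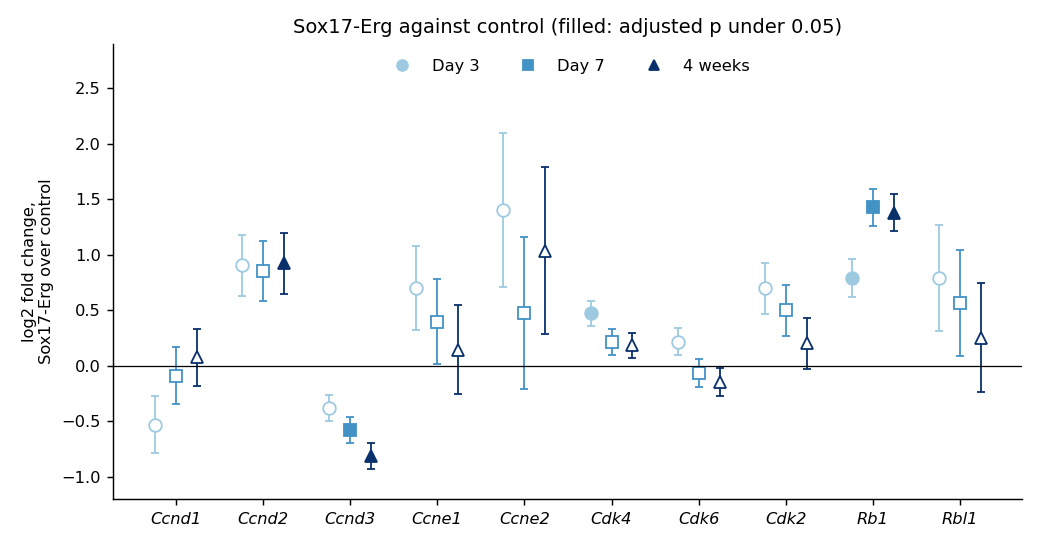
Log2 fold change of *Sox17*-*Erg* over control (y axis) for the 10 members (x axis) at Day 3, Day 7 and 4 weeks, with bars of 1 standard error from edgeR's fit. Filled symbols have an adjusted p under 0.05: *Rb1* at all 3 time points, *Ccnd3* at Day 7 and 4 weeks, *Cdk4* at Day 3 and *Ccnd2* at 4 weeks.

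Taking the time points as strata, an exact two-sided permutation test over the 12 libraries compared the mean log2 difference of each member. The exact p was 0.00926, the smallest this design allows, for *Ccnd2* (mean log2 difference 0.88), *Ccnd3* (-0.59), *Cdk4* (0.29) and *Rb1* (1.20). These are the members whose groups did not overlap at any time point. For *Cdk2* (0.47) the permutation p was 0.0370, for *Ccne2* (0.996) 0.0648, for *Rbl1* (0.55) 0.111 and for *Ccne1* (0.45) 0.120. *Ccnd1* (-0.17) and *Cdk6* (0.0049) gave permutation p-values of 0.352 and 0.954. These 10 p-values are raw, and the test does not use the replicate numbers. Exchanging the groups only within the 6 same-numbered pairs, a choice made after seeing the data, gave *Ccne2* and *Rbl1*, higher in 6 of 6 pairs, an exact permutation p of 0.0312, the smallest that this version allows, and left the other members on the same side of 0.05. A single time point, with 2 libraries against 2, cannot give an exact p below 0.333.

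At Day 3 no member had overlapping groups: 8 had both *Sox17*-*Erg* libraries above both controls and 2 below. Among all genes tested 34.1% lay above in this way and 29.9% below. At Day 7 the members counted 3 above, 1 below and 6 overlapping, beside 29.0% and 28.8% of all genes. At 4 weeks they counted 3 above, 2 below and 5 overlapping, beside 30.3% and 32.4%. These counts take no account of the assumed pairing. Between same-numbered libraries, 8, 7 and 6 members were higher in *Sox17*-*Erg* in both pairs of Day 3, Day 7 and 4 weeks, beside 40.4%, 39.3% and 36.0% of all genes, and 2 were lower in both pairs at each time point, beside 37.7%, 37.7% and 38.5%.

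Over time, *Ccnd2* and *Ccnd3* rose and *Ccne1* and *Cdk4* fell in both groups. From Day 3 to 4 weeks, 3 members were called higher (*Ccnd2*, *Ccnd3* and *Rb1*) in *Sox17*-*Erg* cells against 15.1% of all genes, and 6 lower (*Ccne1*, *Ccne2*, *Cdk4*, *Cdk6*, *Cdk2* and *Rbl1*) against 15.6%. In control cells 2 were called higher (*Ccnd2* and *Ccnd3*) against 13.9%, and 2 lower (*Ccne1* and *Cdk4*) against 12.6%. *Ccne2* had the largest drop, with log2 fold changes of -2.47 in *Sox17*-*Erg* (SE 0.73, edgeR adjusted p = 0.0305) and -2.10 in control (SE 0.75, adjusted p = 0.0677). *Ccne1* fell by 1.94 (SE 0.40, adjusted p = 0.00758) and 1.39 (SE 0.40, adjusted p = 0.0307) on the log2 scale, and *Cdk4* by 0.76 (SE 0.11, adjusted p = 0.00206) and 0.48 (SE 0.11, adjusted p = 0.0149). Both *Sox17*-*Erg* and control cells gained *Ccnd2* by about the same amount (0.87 and 0.86, SE 0.27 each, adjusted p = 0.0391 and 0.0466). These counts rest on few libraries. The 6 lower calls in *Sox17*-*Erg* became 1 without the first *Sox17*-*Erg* library of 4 weeks and 2 and 3 without the first and the second of Day 3. The 3 higher calls became 0 without the first *Sox17*-*Erg* library of 4 weeks or the second of Day 3, and 1 without the first of Day 3, the first control library of 4 weeks or the first control library of Day 3. In control the 2 lower calls became 0 without either 4-week library or the first Day 3 library, 1 without the second Day 3 library and 4 without either Day 7 library, and the 2 higher calls became 1 without any of the 4 libraries of Day 3 or 4 weeks.

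**Figure D3:**
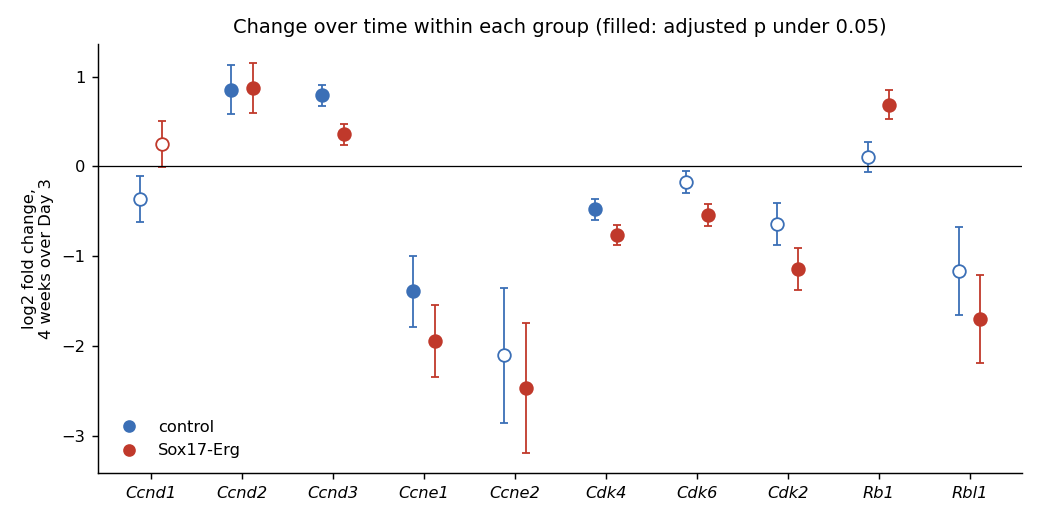
Log2 fold change from Day 3 to 4 weeks (y axis) of the 10 members (x axis) in control (blue) and *Sox17*-*Erg* (red), with bars of 1 standard error from edgeR's fit and filled symbols for an adjusted p under 0.05. *Rb1* rose in *Sox17*-*Erg* by 0.69 and had a value of 0.10 in control, and *Ccne2* has the lowest value in both groups.

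Shorter intervals gave few calls. From Day 3 to Day 7, 1 member was called in control (*Ccnd3*, log2 fold change 0.49, SE 0.12, edgeR adjusted p = 0.0368) against 8.76% of all genes. In *Sox17*-*Erg* 0 were called against 3.42%, and 4 members had an unadjusted p under 0.05 beside 23.4% of all genes. From Day 7 to 4 weeks 0 members were called in control against 0.393% of all genes and 0 in *Sox17*-*Erg* against 1.82%. At an unadjusted p under 0.05 there were 4 members in each, beside 15.3% of all genes in control and 18.4% in *Sox17*-*Erg*. DESeq2's Wald test called 2 members in *Sox17*-*Erg* from Day 3 to Day 7, and from Day 7 to 4 weeks 1 in control and 2 in *Sox17*-*Erg*. The share of all genes is not given for that test over these intervals.

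Whether the *Sox17*-*Erg* effect itself differed between time points was tested as an interaction in edgeR's fit without the replicate block, and DESeq2 was not run for it. None of the members was called for Day 7 against Day 3 (0.0838% of all genes were), for 4 weeks against Day 7 (0.0387%) or for 4 weeks against Day 3 (3.21%). At an unadjusted p under 0.05 the first of these held 1 member (*Rb1*), the second 0 and the last 2 (*Rb1* and *Ccnd3*). Of all genes 8.91%, 6.47% and 16.9% had such a p in the same order. The *Rb1* effect was 0.64 higher on the log2 scale at Day 7 than at Day 3 (SE 0.24, adjusted p = 0.441), and that of *Ccnd3* was lower by a log2 difference of -0.43 at 4 weeks than at Day 3 (SE 0.17, adjusted p = 0.227). With the replicate block within time points, added after seeing the data, again 0 members were called, beside 0.845%, 0.213% and 6.89% of all genes in the same order. For 4 weeks against Day 3 this fit gave *Rb1* a difference of 0.59 (SE 0.15, adjusted p = 0.0625), *Cdk2* -0.49 (SE 0.16, adjusted p = 0.120) and *Rbl1* -0.57 (SE 0.22, adjusted p = 0.186), and 6 members had an unadjusted p under 0.05 (*Rb1*, *Ccnd1*, *Ccnd3*, *Cdk2*, *Rbl1* and *Cdk6*). At Day 7 against Day 3, 2 had one (*Rb1* and *Ccne2*), and at 4 weeks against Day 7, 0. The share of all genes at that unadjusted p is not given for the blocked fit. Calls that appear at 1 time point and not at another, such as that of *Cdk4*, are not shown by these tests to differ between them.

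Levels per kilobase of merged exon, approximate in the same way, spanned a wide range among the members. In control at Day 3 the order was *Ccnd1* (148 ± 15.1 CPM per kilobase, SD, n = 2), *Ccnd2* (51.8 ± 9.52), *Cdk4* (45.1 ± 2.47), *Ccnd3* (18.2 ± 0.763), *Cdk6* (6.60 ± 1.08), *Cdk2* (3.42 ± 0.108), *Rb1* (2.98 ± 0.163), *Ccne1* (2.48 ± 0.955), *Rbl1* (1.78 ± 0.334) and *Ccne2* (1.63 ± 0.525). Neighbours whose 2 libraries overlapped were *Ccnd2* and *Cdk4*, *Rb1* and *Ccne1*, *Ccne1* and *Rbl1*, and *Rbl1* and *Ccne2*. In *Sox17*-*Erg* at 4 weeks *Ccnd2* came first (178 ± 41.3), followed by *Ccnd1* (121 ± 5.12), *Cdk4* (36.9 ± 0.660), *Ccnd3* (17.9 ± 1.51), *Rb1* (8.31 ± 0.865), *Cdk6* (5.29 ± 0.284) and *Cdk2* (2.52 ± 0.287). The last 3, *Ccne1* (1.05 ± 0.245), *Rbl1* (0.946 ± 0.453) and *Ccne2* (0.780 ± 0.530), overlapped one another. *Rb1* thus stood below *Cdk6* and *Cdk2* in the first group and above both in the second.

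For the member with the smallest adjusted p over the 3 tests against control in each role, the genes with the most similar profile of log2 CPM over the 12 libraries were listed, as a description over libraries that share treatment and time. *Rb1* was nearest to *Txndc5* (Pearson's r = 0.990), *Nav2* (0.987) and *Dock9* (0.987). *Ccnd3* was nearest to *Rnase4* (0.981), *Tmem127* (0.980) and *Rab5c* (0.974). *Cdk4* was nearest to *Nudcd2* (0.977), *Sae1* (0.975) and *Srbd1* (0.975), and *Ccne2* to *Pbk* (0.987), *Brip1* (0.986) and *Dtl* (0.986).

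Other genes of the circuit were examined as lists. CDK inhibitors block the cyclin-bound kinases. None of the 7 was called higher in *Sox17*-*Erg* at any time point by edgeR or DESeq2, or had a higher value at an unadjusted p under 0.05, and *Cdkn1c* (p57) was called lower at Day 3 and 4 weeks, 1 of 7 beside 5.13% and 11.0% of all genes. With the replicate block within time points 1 was called higher at each time point (*Cdkn2c*, *Cdkn1a* and *Cdkn2a* in turn), beside 12.7%, 13.8% and 15.5% of all genes. *Cdkn1c* was lower at all 3 in that fit, beside 10.4%, 13.3% and 15.5%. *Cdkn1c* was measured at 291 and 356 CPM in control and at 34.2 and 67.0 CPM in *Sox17*-*Erg* at Day 3, without overlap. Its log2 fold changes were -2.68 at Day 3 (SE 0.35, edgeR adjusted p = 0.00305), -0.88 at Day 7 (SE 0.33, adjusted p = 0.105) and -1.37 at 4 weeks (SE 0.34, adjusted p = 0.0182). From Day 3 to 4 weeks 2 of the 7 rose in both groups, beside 13.9% of all genes in control and 15.1% in *Sox17*-*Erg*, led by *Cdkn2a* (the Ink4a/Arf locus), with 3.83 in control (SE 0.41, adjusted p = 0.000556) and 4.01 in *Sox17*-*Erg* (SE 0.41, adjusted p = 0.000507).

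Among the 11 E2F factors, their DP partners and *Rbl2* (the pocket protein p130), 1 was called higher at Day 3 beside 7.19% of all genes, *Tfdp1* (0.72, SE 0.18, edgeR adjusted p = 0.0333). *Rbl2* alone was called lower at Day 7 beside 7.93% of all genes (-0.69, SE 0.15, adjusted p = 0.0133), and 2 were lower at 4 weeks beside 11.0%, *Tfdp2* (-1.005, SE 0.24, adjusted p = 0.0169) and *Rbl2* (-0.56, SE 0.15, adjusted p = 0.0245). The counts of the 11 with the replicate block were 4, 2 and 3 higher, beside 12.7%, 13.8% and 15.5% of all genes. In that fit 1, 2 and 3 were lower, beside 10.4%, 13.3% and 15.5%. Of 18 E2F target genes of the G1/S step, 5, 2 and 2 were called higher at the successive time points beside 7.19%, 9.48% and 11.9% of all genes. None was lower in edgeR, in DESeq2 or at an unadjusted p under 0.05 at any of them. DESeq2 called 10, 3 and 2 higher, and the replicate block within time points 17, 15 and 8, beside 12.7%, 13.8% and 15.5% of all genes. Median log2 fold changes of the list were 1.12, 0.67 and 0.54. *Cdc45*, a replication helicase factor, had the largest value among those called at Day 3 (1.60, SE 0.34, adjusted p = 0.0186) and 4 weeks (1.18, SE 0.35, adjusted p = 0.0380), and *Pola1*, a DNA polymerase alpha subunit, at Day 7 (1.72, SE 0.39, adjusted p = 0.0177). From Day 3 to 4 weeks 10 of the 18 fell in control, beside 12.6% of all genes, and 17 in *Sox17*-*Erg*, beside 15.6%. DESeq2 called 14 and 18 of them lower. The interaction of group and time over this interval was called for 0 of the 18 without the replicate block, where 4 had an unadjusted p under 0.05, and for 5 with it (*Mcm3*, *Mcm4*, *Mcm7*, *Pcna* and *Tyms*), each with a lower log2 effect at 4 weeks than at Day 3.

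None of the 5 tested of 6 S and M phase cyclins and *Cdk1* was called at Day 3 or Day 7 by edgeR or DESeq2. At an unadjusted p under 0.05, 2 were higher at Day 3 and 0 at Day 7. *Ccnf* was called higher at 4 weeks (2.42, SE 0.72, edgeR adjusted p = 0.0399), 1 of 5 beside 11.9% of all genes. At that time DESeq2 called 4 of the 5 higher and 4 had an unadjusted p under 0.05. The replicate block gave 4, 1 and 4 called higher at the 3 time points, beside 12.7%, 13.8% and 15.5% of all genes. All 5 fell from Day 3 to 4 weeks in both groups, beside 12.6% of all genes in control and 15.6% in *Sox17*-*Erg*. Among 13 tested genes of CDK activation and cyclin turnover, edgeR called 1 higher at each time point, beside 7.19%, 9.48% and 11.9% of all genes, and 0 lower. It was *Wee1*, the kinase that inhibits CDK1 and CDK2, at Day 3 (0.90, SE 0.25, adjusted p = 0.0451) and *Gsk3b*, a kinase that marks D-type cyclins for degradation, at Day 7 (0.35, SE 0.10, adjusted p = 0.0361) and 4 weeks (0.55, SE 0.10, adjusted p = 0.00404). DESeq2 called 1 lower at Day 7. With the replicate block 3, 2 and 2 were higher, beside 12.7%, 13.8% and 15.5% of all genes. *Fbxo31* was lower at 4 weeks in that fit, beside 15.5%. Of 11 mitogen-response factors, 2, 3 and 5 were called higher in the same order of time, beside 7.19%, 9.48% and 11.9% of all genes. None was lower in edgeR, in DESeq2 or at an unadjusted p under 0.05. Blocking by replicate number gave 3, 7 and 7 higher, beside 12.7%, 13.8% and 15.5% of all genes. *Jun* led at Day 3 (1.69, SE 0.29, adjusted p = 0.00967) and 4 weeks (2.79, SE 0.30, adjusted p = 0.00028), and *Mycn* at Day 7 (3.09, SE 0.51, adjusted p = 0.00417). Without the block, *Myc* was the only gene of these lists with an effect that differed between Day 3 and 4 weeks (interaction -1.43, SE 0.30, adjusted p = 0.0374). With it, *Myc* was called together with *Egr1*, *Fos*, *Jun*, *Junb*, the 5 E2F target genes above and *Cks1b*.

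**Figure D4:**
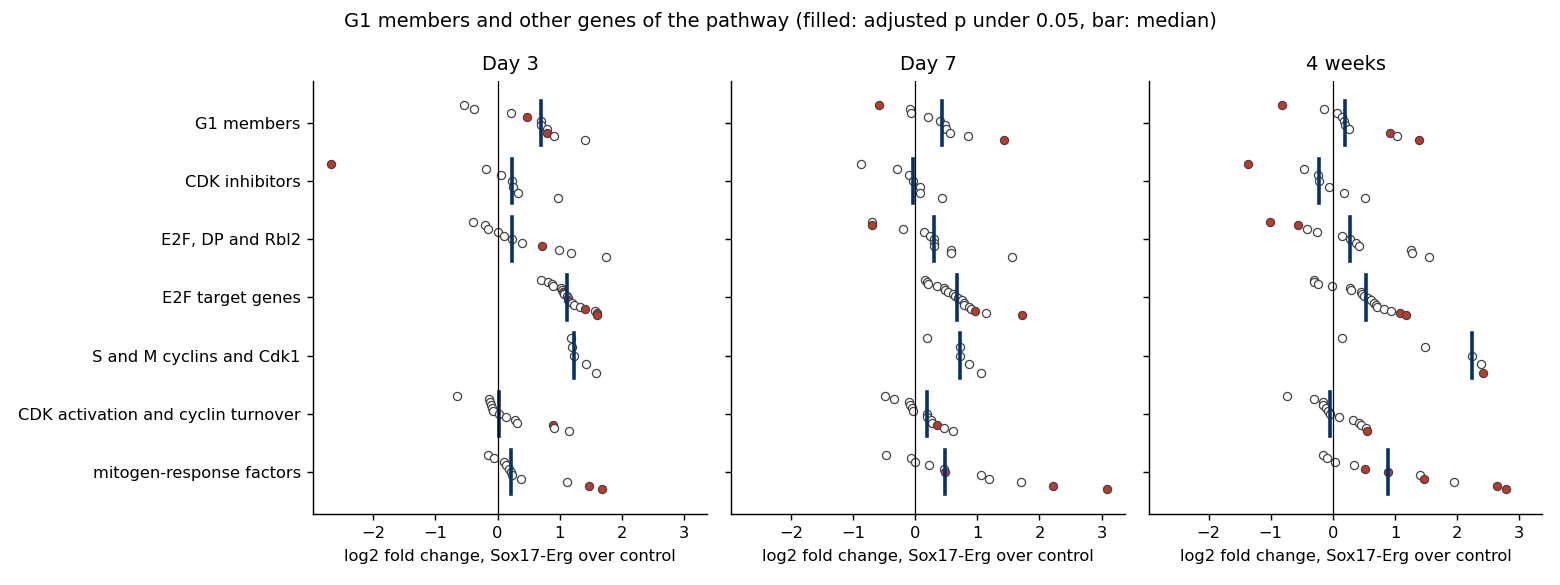
Log2 fold change of *Sox17*-*Erg* over control (x axis) for the 10 members and for 6 lists of other genes of the circuit (y axis) at Day 3, Day 7 and 4 weeks. Each point is a gene, filled points have an adjusted p under 0.05, and vertical bars are list medians, which for the members are 0.70, 0.44 and 0.19.

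*Mki67*, a marker of cycling cells, was measured at 172 and 136 CPM in control and at 467 and 383 CPM in *Sox17*-*Erg* at Day 3, at 136 and 45.0 CPM against 287 and 105 CPM at Day 7, and at 11.7 and 11.3 CPM against 28.5 and 81.3 CPM at 4 weeks. The second Day 7 library of each group was the lower one for *Mki67* and also for *Ccne1*, *Ccne2*, *Cdk2* and *Rbl1*, and the second 4-week library of *Sox17*-*Erg* was the higher one. In the 4-week controls the second library was higher for these 4 members and not for *Mki67*. *Mki67* and *Top2a* were both called higher at 4 weeks, with *Mki67* at 2.25 (SE 0.66, edgeR adjusted p = 0.0364), and with the replicate block at all 3 time points. At that time *Ccne1*, *Ccne2*, *Cdk2* and *Rbl1* had log2 fold changes of 0.15, 1.04, 0.20 and 0.25, of which that of *Ccne2* was called with the replicate block within time points. The effect on *Mki67* was 0.79 higher on the log2 scale at 4 weeks than at Day 3 (SE 0.88, adjusted p = 0.732), and those on *Ccne1*, *Ccne2*, *Cdk2* and *Rbl1* had differences of -0.55, -0.37, -0.50 and -0.54, none of them called. How far the share of cycling cells accounts for the member levels was not tested.

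Markers of other cell types moved with the groups as well. Endothelial markers were called higher in 4, 5 and 6 of 9 tested at Day 3, Day 7 and 4 weeks, with 1 lower at 4 weeks. Of all genes 7.19%, 9.48% and 11.9% were called higher and 5.13%, 7.93% and 11.0% lower. Counts of 1 in these short lists were not tested against these shares and are not read as a result about a list. Summed endothelial levels ranged from 395 to 1524 CPM in control and from 659 to 1347 CPM in *Sox17*-*Erg* libraries. Smooth muscle and pericyte markers were higher in 2, 5 and 5 of 7, with 1 lower at 4 weeks, and summed to between 230 and 533 CPM in control and between 524 and 1121 CPM in *Sox17*-*Erg*. Mesothelial markers were lower in 1, 4 and 6 of 6, with sums of 295 to 1449 CPM in control and 130 to 321 CPM in *Sox17*-*Erg*, and cardiomyocyte markers in 1, 3 and 5 of 8, with 644 to 1526 CPM against 334 to 687 CPM. Of the 10 fibroblast markers 1, 3 and 4 were lower and 0, 1 and 1 higher, and their sums at 4 weeks were 16654 to 20226 CPM in control and 12824 to 13445 CPM in *Sox17*-*Erg*, without overlap. Of the 8 macrophage markers 0 were called by edgeR or DESeq2 or passed an unadjusted p of 0.05 in the fit without the block, but with it 7 were lower at Day 7 and 1 was higher at 4 weeks. Their sums did not overlap at Day 7, with 829 to 1239 CPM in control and 253 to 424 CPM in *Sox17*-*Erg*, and overlapped at Day 3 and 4 weeks. Fitted with the replicate block, fibroblast markers were lower in 6, 5 and 5 of 10 and higher in 0, 2 and 1. Cardiomyocyte markers were lower in 4, 6 and 7 of 8 and mesothelial markers in 5, 6 and 6 of 6. Endothelial markers were higher in 4, 5 and 7, with 0, 1 and 1 lower. Smooth muscle and pericyte markers were higher in 3, 5 and 5, with 1, 0 and 0 lower. In that fit 12.7%, 13.8% and 15.5% of all genes were higher and 10.4%, 13.3% and 15.5% lower. No listed marker was at 0 in a whole group. The part of these cell types in the values of *Ccnd2*, *Ccnd3* and *Rb1* was not tested.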

How the data were processed

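Bulk RNAseq was made from 12 libraries, 2 in each of 6 groups. The authors prepared stranded mRNA libraries, trimmed the reads with BBDuk, quantified them with Salmon and deposited estimated counts per Ensembl gene as whole numbers, not scaled for library size. Per the labels, bcl2fastq 2.20.0 and DESeq2 were also used, and the build was mm10. The Salmon version and its annotation were not given in the sources used here. Symbols, positions and 31-base transcript words came from GENCODE M21 on GRCm38, the assembly that mm10 denotes, which held 35422 of 35727 genes, and promoters from RefSeq on GRCm38.p6. The words count sequence shared between annotated transcripts, on either strand.

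Groups follow the treatment and time in the labels. The quasi-likelihood fit of edgeR 4.0.16 in R 4.3.3 was used on genes kept by filterByExpr (minimum count 10, minimum total 15), with TMM factors (1 mean per group over all 12 libraries, 6 residual degrees of freedom). Calls needed an adjusted p under 0.05 by the Benjamini-Hochberg method over the 15506 genes tested. The fit was tested on simulated data with known changes, in which many of the changed genes were not called at this number of libraries. Exact permutations, tables and plots used Python 3.11.15.

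The replicate number comes from the sample labels. Control and *Sox17*-*Erg* libraries with the same number deviated from their group means together, with correlations across genes (not independent replicates) of 0.19, 0.30 and 0.17 at Day 3, Day 7 and 4 weeks. No label says that equal numbers pair the libraries, and the deposited columns number them otherwise, in the same order. These correlations were not tested against chance, and 2 libraries give each group a single independent deviation. The pairing is thus an assumption. Under it, a fit with the replicate number as a block within each time point is given beside a result where it changed the call. That fit had 3 residual degrees of freedom. Alternatives were DESeq2 1.42.0 (Wald test), its size factors, no filter, a stricter filter of 1 CPM in 4 libraries, each time point fitted alone, replicate blocks, a minimum log2 fold change of 1, an adjusted p under 0.01 and leaving out each library. The block for interactions and for the other gene lists was added after seeing the data.

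The 10 members and all gene and marker lists were chosen with earlier results of these data known. All members were named. Of each other list of the circuit the gene with the largest change against control among those called in each direction at each time point was named, and for 1 member of each role the 3 genes with the highest correlation. Further genes were named to check the labels, the overlaps with members or cycling cells, or because a count was small. Proteins were not analysed here.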

Additional observations from a re-analysis of the deposited data

Results flagged for a closer look

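In *Ccnd1* the change from Day 3 to 4 weeks had opposite signs in the groups. Both *Sox17*-*Erg* libraries of 4 weeks were above both of Day 3, and both control libraries of 4 weeks were below both of Day 3. The change in *Sox17*-*Erg* minus that in control was 0.61 on the log2 scale (SE 0.36), and the interaction did not pass edgeR's test (adjusted p = 0.454).

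For *Cdk6* both *Sox17*-*Erg* libraries were above both controls at Day 3 and below both at 4 weeks. The effect at 4 weeks minus that at Day 3 was -0.37 on the log2 scale (SE 0.17), and this interaction did not pass the test either (adjusted p = 0.337).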

How the results depend on the processing

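Numbers of members called higher and lower in *Sox17*-*Erg* (2 and 0 at Day 3, 1 and 1 at Day 7, 2 and 1 at 4 weeks) and of genes called in all moved with these choices. DESeq2's Wald test gave 1 member lower at Day 3 and 2 higher at Day 7. Each time point fitted alone gave 4 higher at Day 3, 0 lower at Day 7 and 1088 genes at Day 7. No filter gave 4 higher at Day 3 and 2 at Day 7, and a stricter filter 1 lower at Day 3. The replicate block over all libraries gave 2 higher at Day 7. The replicate block within each time point gave 6 higher and 1 lower at Day 3, 4 higher at Day 7, and 3592 and 4207 genes at these times, and for single members it changed no calls beyond those given beside them. An adjusted p under 0.01 gave 0 higher and 421 genes at Day 3, 0 lower and 1101 genes at Day 7, and 1 higher and 1822 genes at 4 weeks. A minimum log2 fold change of 1 gave 0 higher and 934 genes at Day 3, 0 lower and 1577 genes at Day 7, and 1 higher, 0 lower and 2116 genes at 4 weeks. The last 2 settings and the filters differ in what they admit, and for the other settings the cause was not tested.

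Leaving out each library gave 0 to 3 members higher and 272 to 1992 genes at Day 3, 1 higher, 0 to 1 lower and 920 to 2508 genes at Day 7, and 1 to 2 higher, 1 lower and 1697 to 3577 genes at 4 weeks. From Day 3 to 4 weeks it gave 0 to 3 higher and 1 to 6 lower in *Sox17*-*Erg* and 1 to 2 higher and 0 to 4 lower in control. The smallest gene counts came without the first *Sox17*-*Erg* library of Day 3 (272), of Day 7 (920) and of 4 weeks (1697). Without the first or second control library of Day 3 there were 377 and 367 genes at Day 3, without the second control library of Day 7 there were 1377 at Day 7, and without the first control library of 4 weeks there were 2021 at 4 weeks.

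Without single libraries, log2 fold changes crossed 0 for 4 members, each at a time point at which neither edgeR's test nor the replicate block within time points called it. At Day 7 *Ccnd1* ranged from -0.40 to 0.29 (above 0 without the second *Sox17*-*Erg* or the first control library), *Ccne1* from -0.043 to 1.01 (below 0 without the second control library) and *Ccne2* from -0.18 to 1.59 (below 0 without the first *Sox17*-*Erg* or the second control library). At 4 weeks *Ccnd1* ranged from -0.11 to 0.29 (below 0 without the first control library), *Ccne1* from -0.14 to 0.36 (below 0 without the second *Sox17*-*Erg* library) and *Rbl1* from -0.37 to 0.80 (below 0 without either of these libraries). *Ccnd2*, *Ccnd3*, *Cdk4*, *Cdk2*, *Cdk6* and *Rb1* kept their sign in all settings run. With 2 libraries a group, an SD is imprecise.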
